A study of Homo sapiens with 8 samples.

Results

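The genes described here encode the laminins, the trimeric glycoproteins of the basement membrane, and the integrins, the adhesion receptors that bind laminins and other matrix proteins. They were taken by name: protein-coding genes with a laminin chain symbol (LAMA, LAMB or LAMC with a number) or an integrin subunit symbol (ITGA or ITGB), without the integrin-binding proteins ITGB1BP and ITGB3BP, that had at least 20 footprint counts summed over the 4 input libraries. Of 39 genes with such a name, 37 qualified, out of 14668 protein-coding genes that reached the same count. They are 12 laminin genes, 17 integrin alpha genes, 7 integrin beta genes and ITGBL1, a secreted protein built of repeats like those of integrin beta subunits. The genes just outside the threshold were ITGAD with 5 counts and ITGB6 with 9, and those just inside it were ITGAL with 25 and LAMB4 with 30.

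The libraries come from selective ribosome profiling, in which the ribosome-protected fragments of ribosomes bound by a tagged chaperone are sequenced beside those of all ribosomes. All 8 were made from U-2 OS, a human osteosarcoma line, treated with cycloheximide to hold ribosomes in place and with DSP to crosslink chaperones to nascent chains. In the TRiC line (genotype CCT4-Halo) the HaloTag sits within the chaperonin subunit CCT4, and in the PFD line (PFDN4-Halo) it sits at the end of prefoldin subunit 4. Each line gave 2 input libraries from the ribosome pellet and 2 pulldown libraries from the anti-Halo purification. The tagged lines were derived as single clones according to the study's methods, so the lines differ in tag, clone and experiment, and these cannot be told apart. The totals were 24949407 to 32637658 counts in the TRiC libraries and 9523128 to 28582306 in the PFD libraries. Of the markers of U-2 OS and mesenchymal cells, VIM, RUNX2, CDH2 and SPARC were present in every library, while TWIST1 reached at most 0.43 CPM (counts per 1000000 of the TMM-scaled library). Of the markers of other cell types, EPCAM lay between 0.105 and 18.2 CPM, and CDH1, KRT5, PTPRC, CD3E, PECAM1 and VWF all stayed below 4 CPM.

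A laminin is a cross-shaped trimer of 1 alpha, 1 beta and 1 gamma chain, joined through a long coiled coil before secretion, and its alpha chain carries the main receptor-binding domains. An integrin is a dimer of 1 alpha and 1 beta subunit, each with a large outer part, a single membrane span and, for most, a short cytosolic tail. The tails of many beta subunits recruit talin and kindlin. Both families are made on ribosomes at the endoplasmic reticulum and rely on disulfide bonds, whereas TRiC is a cytosolic ring-shaped chaperonin, best known for folding actin and tubulin, to which prefoldin (PFD) delivers nascent chains.

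The members were long and, in part, rich in cysteine. The laminins had a median of 1792 codons, the integrin alphas 1137 and the integrin betas 798, beside 476 over all genes with at least 20 input counts. Cysteine made up a median of 5.88% of codons in laminins and 7.11% in integrin betas, where it lies in epidermal-growth-factor-like repeats, against 1.96% in integrin alphas and 1.91% over all genes. A feature of the integrin alphas that the naming rule did not use is a conserved run of 5 residues just inside the membrane (glycine, phenylalanine, phenylalanine, lysine, arginine), which holds the alpha tail against the beta tail. It was found in 13 of 17 integrin alpha members and in none of the other 20 members. Over all genes it was found in 23 of 14668. The exact motif was not present in ITGA8, ITGA9, ITGA10 and ITGA11. Its codons stand in capitals in the sequences of 6 alphas whose values are described here, each with the next 5 codons of the coding strand, because the same 5 residues were written with different codons: the 13 genes held 12 distinct versions of the 15 bases.
ITGA3: GGCTTCTTCAAGCGAgcccgcactcgcgcc
ITGA6: GGTTTCTTCAAGAGAaataagaaagatcat
ITGA5: GGATTCTTCAAACGCtccctcccatatggc
ITGAV: GGCTTTTTTAAACGGgtccggccacctcaa
ITGA2: GGCTTCTTCAAAAGAaaatatgaaaagatg
ITGAX: GGCTTCTTCAAGCGTcagtacaaggaaatg
In hg38 these lie at chr17:50088228-50088257 on the plus strand (ITGA3), chr2:172501775-172501804 on the plus strand (ITGA6), chr12:54396344-54396373 on the minus strand (ITGA5), chr2:186677200-186677229 on the plus strand (ITGAV), chr5:53090522-53090551 on the plus strand (ITGA2) and chr16:31381806-31381835 on the plus strand (ITGAX), each within 1 coding exon.

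In the inputs, which measure translation by all ribosomes, the levels of the members spanned several orders of magnitude. Levels between genes are given as CPM per kb of coding sequence, as the mean of the TRiC inputs and the mean of the PFD inputs. ITGB1, the beta subunit shared by most integrins on these cells, stood highest with 557.9 in the TRiC line and 606.7 in the PFD line. ITGA3, an alpha subunit that pairs with it to bind laminin, followed with 358.2 and 526.8. Other integrins with high levels were ITGAV (129.5 and 195) and ITGB5 (147.3 and 153), which together form a vitronectin receptor, and ITGA5 (108.1 and 82.5), the fibronectin receptor alpha. Neither ITGB1 nor ITGB5 was called between the inputs of the lines (log2 fold changes of 0.12 ± 0.13 and 0.05 ± 0.09, SE), with ITGB1 at 1290 and 1382 CPM in the TRiC inputs and 1543 and 1362 CPM in the PFD inputs. Among laminins, LAMC1, the gamma chain of most laminins, had similar levels in both lines (139.5 and 132.2), while LAMA5 was at 79.3 in the TRiC line and 12.9 in the PFD line. Of the ITGB1 coding sequence, 24.6% of 28-base windows also occur in the pseudogene ITGB1P1, and 95.8% of those of ITGB3 occur in an overlapping readthrough gene, so the level of ITGB3 (at most 2.85 CPM in any library) is uncertain. ITGAX shares 7.28% of its windows with ITGAD and ITGAM.

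**Figure D1:**
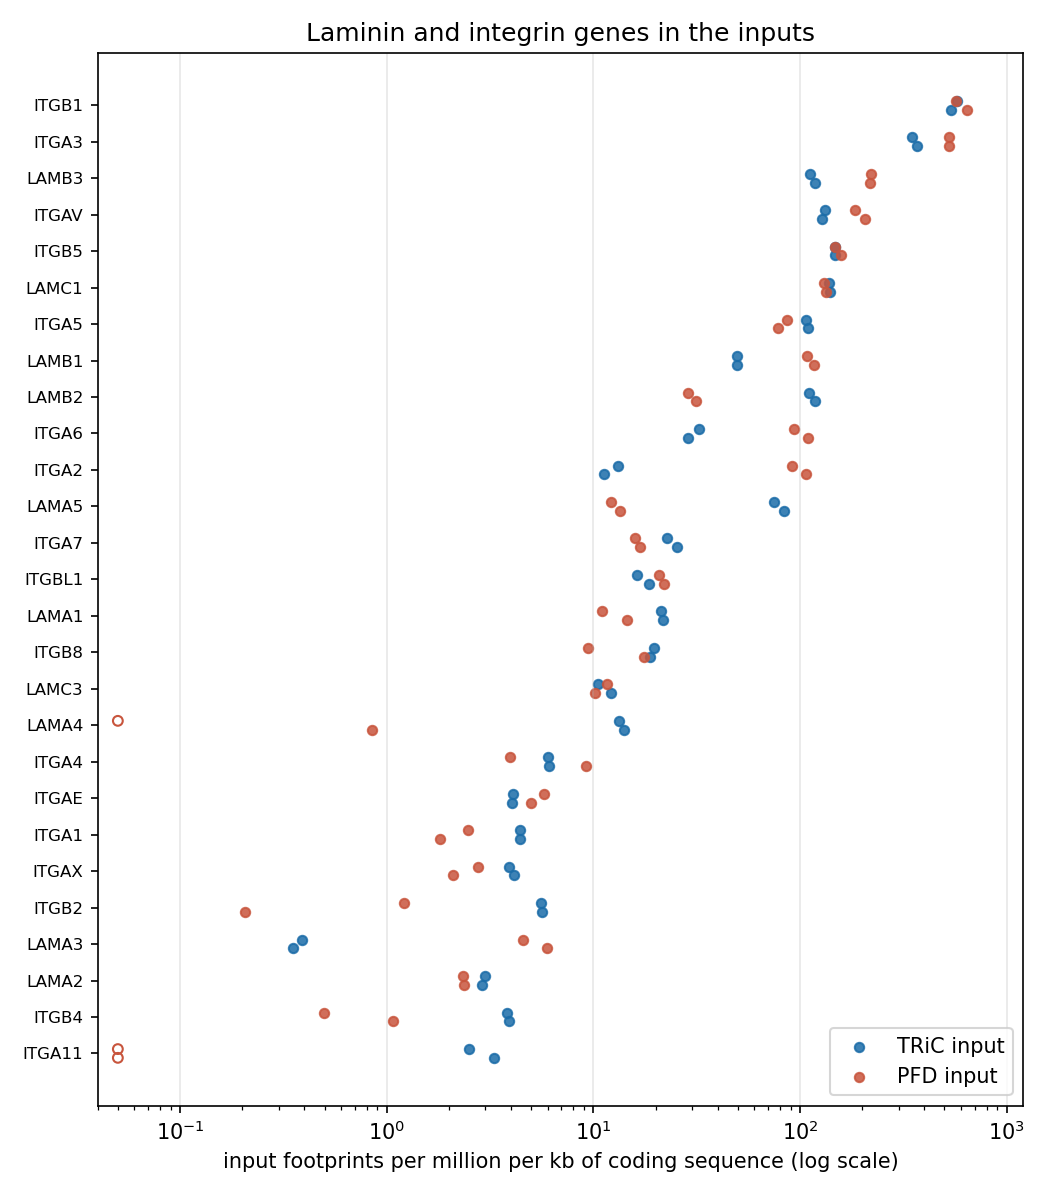
Input level of members with a mean of at least 1 CPM per kb of coding sequence, on a log axis, with 1 point per input library (blue, TRiC line; red, PFD line; open circles at the left edge, no counts). The points of the lines lie close together for ITGB1, ITGB5 and LAMC1 and far apart for LAMA3, LAMA4, LAMA5 and ITGA2.

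The first comparison asks which members were enriched on TRiC-bound ribosomes, taking TRiC pulldown against TRiC input. Of 34 members tested, 4 were higher in the pulldown (LAMA5, LAMA1, ITGB8 and ITGAX) and 1 was lower (ITGB5), by edgeR's quasi-likelihood test at a Benjamini-Hochberg adjusted p under 0.05 over all genes. That is 14.7% of the members, where 19.2% of all 17934 genes tested were called, 8.64% higher and 10.6% lower. Their median log2 fold change was 0.067, beside -0.0032 over all genes. Over 14611 protein-coding genes tested, the log2 fold change rose with coding length (Spearman correlation 0.35). Over the 34 members this correlation was 0.038, and the part of length in the members' values was not tested. At an unadjusted p under 0.05, 10 of 34 members passed, with 32.5% of all genes passing that limit.

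LAMA5, the alpha chain of the widespread laminins of adult basement membranes (chr20:62307955-62367312, minus strand), had the clearest difference. Its level was 925 and 833.9 CPM in the TRiC inputs, and 1238 and 1176 CPM in the TRiC pulldowns. Both pulldown values lay above both input values. The log2 fold change was 0.46 ± 0.07 (SE, 2 libraries a group, adjusted p = 0.000217 by edgeR), or 1.37-fold. LAMA1, an alpha chain mostly of early embryonic basement membranes (chr18:6941742-7117797), was at 200.2 and 195.5 CPM in the inputs and 224.9 and 239.2 CPM in the pulldowns, with a log2 fold change of 0.23 ± 0.07 (SE, edgeR adjusted p = 0.0380). The groups did not overlap here either, and 11.1% of the LAMA1 exon length lies opposite a gene on the other strand. The other alpha chains tested, LAMA2, LAMA3 and LAMA4, did not pass, and neither did any of the 3 beta and 3 gamma chains tested. The 2 alpha chains were the only laminins called of 11 tested, and whether alpha chains differ from beta and gamma chains was not tested.

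ITGB8, a beta subunit that pairs with ITGAV and binds latent transforming growth factor beta (chr7:20330702-20415754), was at 43.3 and 45.3 CPM in the TRiC inputs and 52.9 and 55.2 CPM in the pulldowns. Its log2 fold change was 0.29 ± 0.10 (SE, edgeR adjusted p = 0.0483), and it was not called by DESeq2 (adjusted p = 0.0505) or without a filter on low counts (edgeR adjusted p = 0.0839). ITGAX, an alpha subunit best known from myeloid and dendritic cells (chr16:31355134-31382999), was low, at 14.4 and 13.6 CPM in the inputs and 20.9 and 18.9 CPM in the pulldowns, and its log2 fold change was 0.51 ± 0.14 (SE, edgeR adjusted p = 0.0187). ITGB5 (chr3:124761948-124901418) moved the other way, from 352.3 and 354 CPM to 311.4 and 294.5 CPM. Its log2 fold change was -0.22 ± 0.07 (SE, edgeR adjusted p = 0.0337), or 0.858-fold. The pulldown and input values did not overlap for any of these genes. ITGB8 and ITGB5 were each called in 6 of 13 settings, LAMA1 in 7, ITGAX in 9 and LAMA5 in 11. Every one of the differences was below 1.5-fold, and none passed a test against that fold. Scaling by library totals, which raised the share of higher calls among all called genes from 45% to 58.7%, left the same 4 members higher and ITGB5 uncalled, and cyclic loess scaling called 8 members higher and none lower. Each of these scalings called 17.1% of all genes.

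**Figure D2:**
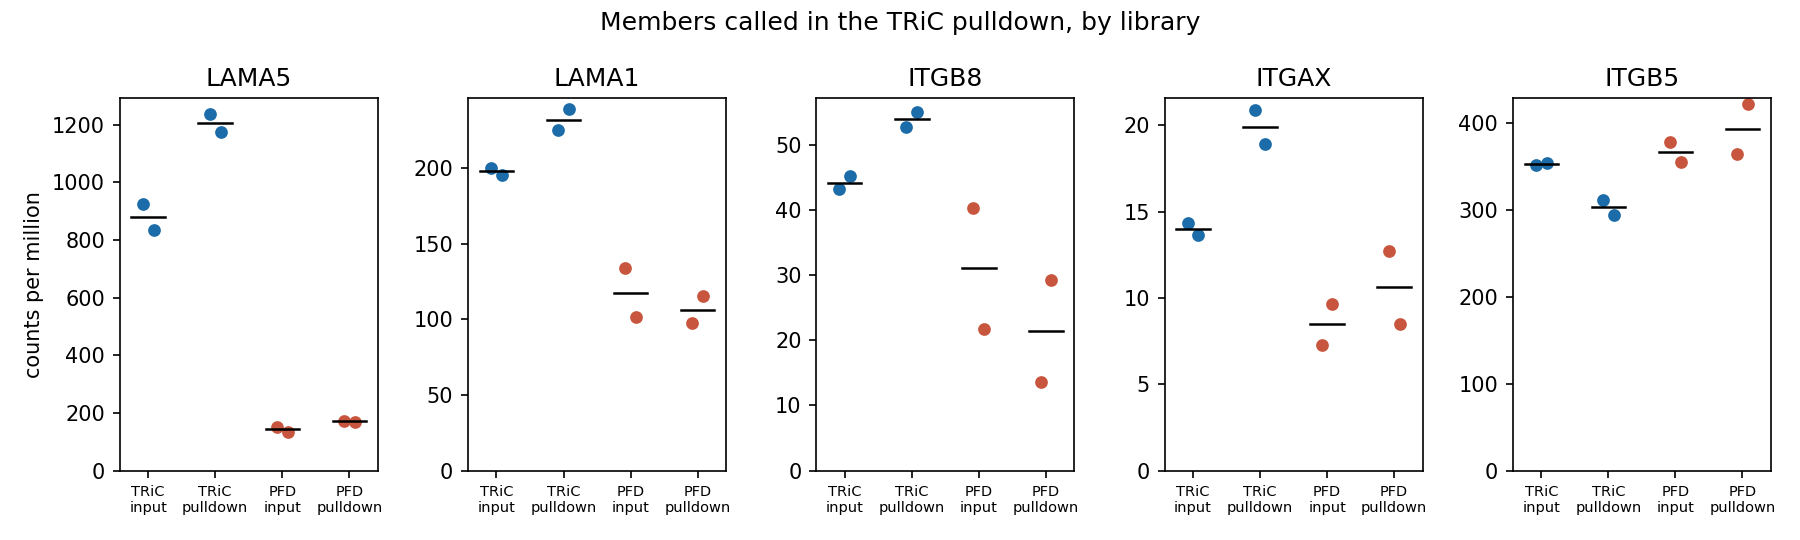
CPM in each library for the 5 members called in the TRiC pulldown, with 1 point per library and a line at the group mean (blue, TRiC line; red, PFD line; axes start at 0). The TRiC pulldown points lie above the TRiC input points for LAMA5, LAMA1, ITGB8 and ITGAX and below them for ITGB5, while in the PFD line the points of both groups overlap for LAMA1, ITGB8, ITGAX and ITGB5.

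Other members with high input levels did not pass edgeR's test. ITGB1 was at 1420 and 1617 CPM in the TRiC pulldowns, above both of its input values, with a log2 fold change of 0.19 ± 0.07 (SE, edgeR adjusted p = 0.0710). ITGAV was close to this, with 0.17 ± 0.07 (edgeR adjusted p = 0.0845). Both were called higher by DESeq2 (adjusted p = 0.0437 for ITGB1 and 0.0379 for ITGAV), with a replicate block (edgeR adjusted p = 0.0036 and 0.0114), with cyclic loess, with a minimum of 10 counts per library and without TRiC pulldown 1. ITGA3 had 1161 and 1098 CPM in the inputs and 1056 and 956.7 CPM in the pulldowns, with -0.17 ± 0.07 (edgeR adjusted p = 0.0899), and it was called lower with the block (0.00772) and without TRiC pulldown 1 (0.001). ITGA5 had -0.14 ± 0.07 and ITGA6, an alpha subunit of laminin receptors, 0.10 ± 0.09, both log2 fold changes with SE. For the laminin chains with the highest input levels, the log2 fold changes were -0.08 ± 0.07 for LAMB3, 0.02 ± 0.06 for LAMC1 and 0.11 ± 0.07 for LAMB1. The small negative values of ITGA3 and LAMB3 moved to 0.00065 and 0.048 with cyclic loess scaling. The remaining tested members ranged from -0.37 to 0.98, the highest for ITGA10 at under 4 CPM, and ITGA8, ITGAL and LAMB4 had too few counts to be tested. The standard error was 0.107 at the median over the members. Summed over all members, the share of a library's counts was 0.711% and 0.725% for the TRiC inputs, against 0.792% and 0.785% for their pulldowns. As a share of the TMM-scaled library the rise was smaller, from 0.738% and 0.724% to 0.776% and 0.778%.

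The calls in the TRiC pulldown changed with the libraries fitted. In a fit of all 8 libraries together, where the common dispersion was 0.223 in place of 0.0153, no member was called, where 0.164% of all genes were, and LAMA5 had the same log2 fold change of 0.46 with an edgeR adjusted p of 0.135. Without TRiC input 1 LAMA5 was the only member called (8.52% of all genes were), and without TRiC input 2 LAMA5 was called higher and LAMB4 lower (8.96% of all genes were called).

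Genes that work with integrins and laminins were counted in the same comparison, in which 19.2% of all genes were called. Of 26 cytosolic adhesion partners, 2 were higher in the TRiC pulldown and 6 were lower, with a median log2 fold change of -0.09. TLN2, a talin that links integrin tails to actin, was at 89.7 and 84.7 CPM in the inputs and 135.7 and 131.4 CPM in the pulldowns, and its log2 fold change was 0.62 ± 0.08. CRK, an adaptor in focal adhesion signalling, had -0.41 ± 0.11, and ZYX (zyxin), a protein of focal adhesions, had -0.39 ± 0.08. Of 12 membrane partners of integrins, such as tetraspanins and syndecans, 6 were lower and none was higher, with a median of -0.24. BSG (basigin), the lowest of those called in the lists, fell from 754.7 and 724.3 CPM to 599.9 and 515.4 CPM, by -0.41 ± 0.07 on the log2 scale. None of 12 basement membrane partners, which include nidogens, perlecan and type IV collagens, was called, and 3 had an unadjusted p under 0.05. Of 27 other secreted matrix glycoproteins tested, 4 were higher and 2 lower, and TNXB, a tenascin, had the highest value of those called in the lists with 1.10 ± 0.16. Of 11 fibrillar and other collagens, 3 were higher and 1 was lower. COL7A1, the collagen of anchoring fibrils, was at 68.2 and 49.7 CPM in the inputs and 106.2 and 91.1 CPM in the pulldowns, with a log2 fold change of 0.75 ± 0.12. All of these values come from the same edgeR fit, and no list was tested as a whole. Over all protein-coding genes the log2 fold change rose with coding length (Spearman correlation 0.35). The part of length in the values of these lists was not tested.

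The second comparison asks the same of prefoldin, taking PFD pulldown against PFD input. No member was called of 30 tested, in a comparison in which 0.241% of 14111 genes were called. At an unadjusted p under 0.05, 5 members passed (6.93% of all genes did), and all 5 were above 0. Those named here were chosen after their values were seen. DESeq2, run on the same counts, called 4 of them higher (LAMB3, LAMB2 and ITGA3 among them) and 3.78% of all genes, and limma-trend after cyclic loess called none of the members and 0.404% of all genes. LAMB3 was at 768 and 772.5 CPM in the PFD inputs and 847.7 and 948 CPM in their pulldowns, with a log2 fold change of 0.23 ± 0.09 (SE, edgeR adjusted p = 0.706). ITGA3 was at 1662 and 1660 CPM and then 1779 and 1960 CPM, with 0.18 ± 0.07 (edgeR adjusted p = 0.715). LAMB2 had 0.35 ± 0.13 and LAMC3 0.69 ± 0.27, with edgeR adjusted p-values of 0.706 and 0.714. For these genes both pulldown values lay above both input values, and none of the differences passed the test over all genes.

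The median log2 fold change over the 30 members was 0.15 in the PFD pulldown, beside -0.00048 over all genes, and 18 of the 30 were above 0. LAMA5 had 0.27 ± 0.14 (149.8 and 135.4 CPM in the inputs, 171.1 and 169.5 CPM in the pulldowns). The other members called in the TRiC pulldown had log2 fold changes of -0.13 ± 0.19 for LAMA1, -0.53 ± 0.47 for ITGB8, 0.34 ± 0.66 for ITGAX and 0.11 ± 0.11 for ITGB5 in the PFD pulldown. ITGB1 had -0.05 ± 0.11, ITGAV -0.01 ± 0.11, ITGA5 0.03 ± 0.16, ITGA6 -0.18 ± 0.15, LAMC1 0.12 ± 0.14 and LAMB1 -0.02 ± 0.12. The members' median SE was 0.261, and the common dispersion of 0.331 was well above that of the TRiC fit. Low genes were patchy in these libraries: 8 members had no counts in PFD input 2 and 9 had none in PFD pulldown 1, against 3 in each of the deeper PFD libraries and at most 2 in any TRiC library. Leaving out 1 library changed the calls. Without PFD pulldown 1, 4 members were called higher (LAMB3, LAMC1 and ITGA3 among them), with 2.34% of all genes called. Without PFD pulldown 2, 2 were called higher (LAMC3 among them) and 3 lower (ITGB1, ITGA6 and ITGB8), which is 5 of 32 members where 15.8% of all genes were called. The log2 fold change of ITGB8 ran from -1.15 without PFD pulldown 2 to -0.04 without PFD input 1. The partner lists held no called gene in the PFD pulldown by edgeR. At an unadjusted p under 0.05 were 2 of 25 cytosolic, 2 of 12 membrane and 2 of 9 basement membrane partners. So were 2 of 24 other secreted matrix glycoproteins and 3 of 10 fibrillar and other collagens, where 6.93% of all genes passed. All 9 tested basement membrane partners lay above 0, with a median of 0.23, where 49.9% of all genes did. Above 0 were also 20 of 25 cytosolic partners, 19 of 24 other secreted matrix glycoproteins, 7 of 12 membrane partners and 7 of 10 collagens.

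**Figure D3:**
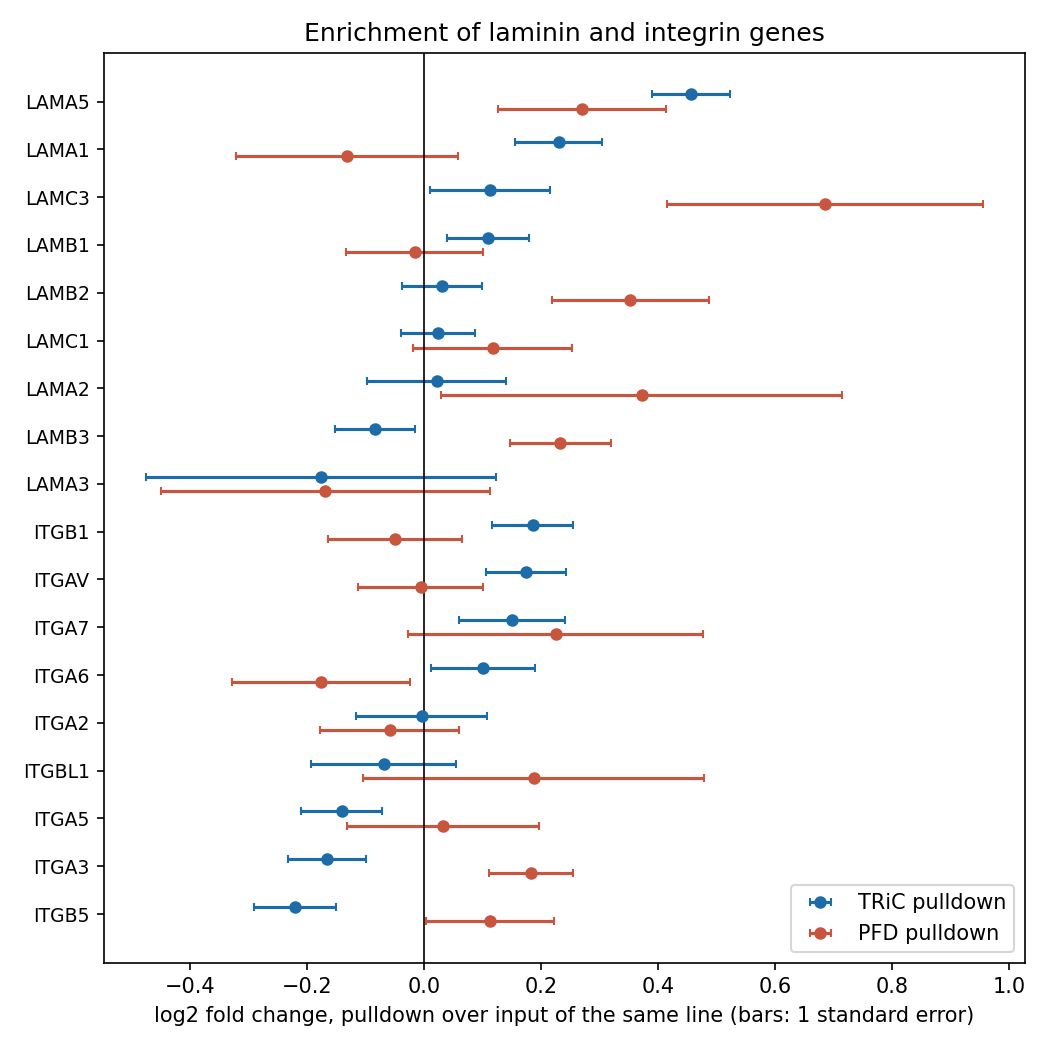
Log2 fold change of pulldown over input of the same line for members whose standard error was below 0.35 in both comparisons (blue, TRiC; red, PFD; bars, 1 standard error). LAMA5 lies above 0 in both, LAMB3 and ITGA3 lie above 0 in the PFD pulldown and below it in the TRiC pulldown (just above 0 there with cyclic loess scaling), and the PFD bars are the wider ones for most genes.

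Whether the enrichment of a member differed between the pulldowns was tested as an interaction over all 8 libraries. None of 35 members was called, with 0.0371% of 18855 genes called. At an unadjusted p under 0.05, 6 members passed, where 14.8% of all genes did. DESeq2 called 3 (ITGA3 and LAMB3 among them), all with the smaller enrichment on TRiC, and 5.22% of all genes. Among the named members, the difference of TRiC minus PFD enrichment was -0.34 ± 0.11 for ITGA3, -0.31 ± 0.12 for LAMB3 and -0.32 ± 0.13 for ITGB5 on the log2 scale, with edgeR adjusted p-values of 0.256, 0.299 and 0.324. It was 0.20 ± 0.12 for LAMA5 (edgeR adjusted p = 0.476) and 0.37 ± 0.20 for LAMA1 (edgeR adjusted p = 0.421). The calls of LAMA5 and LAMA1 in the TRiC pulldown are therefore not shown to be particular to TRiC.

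The largest differences among the members were those between the inputs of the lines. This comparison, PFD input against TRiC input in the fit of all 8 libraries, was added after the values had been seen, and the genes named in it are among those called. Of 35 members tested, 14 were called, 8 higher and 6 lower in the PFD line. That is 40% of the members, beside 20.5% of all 18855 genes (9.93% higher and 10.5% lower). The partner lists had larger shares called: 50% of 26 cytosolic, 58.3% of 12 membrane and 58.3% of 12 basement membrane partners. Of 27 other secreted matrix glycoproteins 66.7% were called, and of 11 fibrillar and other collagens 90.9%. A share above that of all genes was therefore not particular to the members. With a minimum of 10 counts per library, 8 of 25 members were higher and 6 lower, where 35.7% of all genes were called. The median log2 fold change over all genes was -0.19, and 0.065 with cyclic loess scaling, and no called member changed direction between these scalings. Among laminins 8 of 11 were called, among integrin alphas 5 of 16 and among integrin betas 1 of 7.

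Among the laminin chains higher in the PFD line was LAMA3, an alpha chain typical of epithelia. LAMA3 was at 3.54 and 3.89 CPM in the TRiC inputs and 59.6 and 45.6 CPM in the PFD inputs, a log2 fold change of 3.82 ± 0.29 (SE, edgeR adjusted p = 8.97e-05). LAMB3, a beta chain that pairs with LAMA3, was at 413.9 and 392.9 CPM and then 768 and 772.5 CPM, with 0.93 ± 0.08 (SE, edgeR adjusted p = 0.000175), so that it was well translated in both lines. LAMC1 was not called, with 677.2 and 669.4 CPM in the TRiC inputs, 646.3 and 630.4 CPM in the PFD inputs and a log2 fold change of -0.08 ± 0.14. LAMB1, the common beta chain, was higher in the PFD line, from 266.7 and 265.3 CPM to 625.6 and 577.3 CPM, with 1.18 ± 0.12.

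Other laminin chains were lower in the PFD line. LAMA5 was at 925 and 833.9 CPM in the TRiC inputs and 149.8 and 135.4 CPM in the PFD inputs, a log2 fold change of -2.62 ± 0.09 (SE, edgeR adjusted p = 3.89e-06). LAMB2, a beta chain of muscle, nerve and kidney basement membranes, was at 637.3 and 596.3 CPM and then 169.2 and 154.3 CPM, with -1.93 ± 0.09 (SE, edgeR adjusted p = 1.33e-05). LAMA4, an alpha chain of vessels and mesenchyme, was at 77.3 and 72.8 CPM in the TRiC inputs, with 4.62 CPM in PFD input 1 and no counts in PFD input 2, and its log2 fold change was -4.84 ± 0.91 (SE, edgeR adjusted p = 0.00740). LAMA1 was at 200.2 and 195.5 CPM and then 133.8 and 101.4 CPM, with -0.75 ± 0.15 (SE, edgeR adjusted p = 0.00879).

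Among the integrins, 4 alpha subunits were higher in the PFD line. ITGA2, the alpha subunit of a collagen receptor, was at 40 and 46.8 CPM in the TRiC inputs and 378.9 and 325.3 CPM in the PFD inputs, a log2 fold change of 3.02 ± 0.14 (SE, edgeR adjusted p = 1.33e-05). ITGA6 was at 92.8 and 104.3 CPM and then 351.4 and 302.1 CPM, with 1.73 ± 0.16 (SE, edgeR adjusted p = 0.000235). ITGAV and ITGA3 differed less, with 0.59 ± 0.10 and 0.56 ± 0.08. ITGB4, the beta subunit that pairs with ITGA6 in hemidesmosomes, was lower in the PFD line, at 21.4 and 20.9 CPM in the TRiC inputs and 5.85 and 2.7 CPM in the PFD inputs, with -2.29 ± 0.54 (SE, edgeR adjusted p = 0.0200). ITGA11, another collagen receptor subunit, had 329 and 273 counts in the TRiC inputs and none in either PFD input, so that against a floor of 3 counts per library it was at least 46-fold lower in the PFD inputs. PFD pulldown 1 had none either, but PFD pulldown 2 had 26 counts (0.942 CPM), beside 11.6 and 9.51 CPM for the TRiC pulldowns. Of the laminin-binding subunits, ITGA3 and ITGA6 were thus higher, ITGB4 was lower, and ITGA7 was at -0.55 ± 0.19 and not called.

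**Figure D4:**
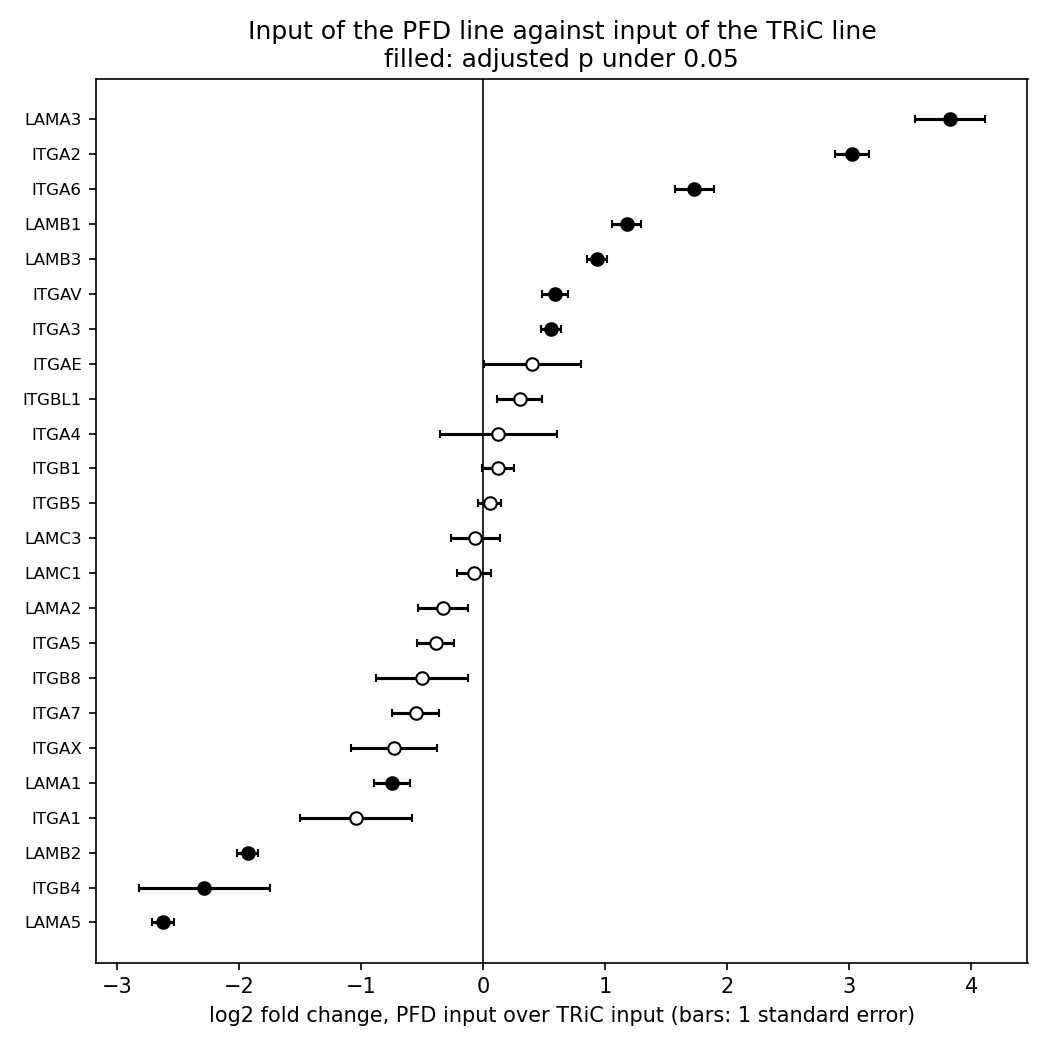
Log2 fold change of PFD input over TRiC input for members with a standard error below 0.6 (bars, 1 standard error; filled points, edgeR adjusted p under 0.05). LAMA3 and ITGA2 lie above 3, LAMA5 and ITGB4 lie below -2, and ITGB1, ITGB5, LAMC1 and LAMC3 lie near 0.

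The same order appeared in the pulldown libraries of each line, which are other libraries of the same cells. LAMA5 was at 1238 and 1176 CPM in the TRiC pulldowns, against 171.1 and 169.5 CPM for the PFD pulldowns. ITGA2 was at 40.4 and 46.3 CPM in the former and 313.3 and 357.1 CPM in the latter. For all 14 genes called between the inputs, the 4 PFD libraries lay wholly on one side of the 4 TRiC libraries. These genes were chosen by their inputs, which are among the libraries compared. The separation was thus largely fixed by the choice and is no independent support. Over all tested members the ranges of the lines did not overlap for 25 of 35, while 38.9% of all 18855 genes had ranges that did not overlap. Some of these members reached the count rule through the TRiC inputs alone. ITGB7 had 26 and 8 counts there and ITGA11 329 and 273, with none in either PFD input. For such genes the lack of overlap follows in part from the rule. Of the 14 calls, 8 (among them LAMA3, LAMB3, LAMB1, LAMA5, LAMB2, ITGA2 and ITGA6) were made under every alternative tried. The share of all genes called under every alternative was not computed, so this count has no background beside it. ITGB4 was not called in 7 of the 17 settings, and ITGA11 was not called once either PFD input was left out.

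Each chain's share of its class was computed from CPM per kb within a library. LAMB3 was at 41.2% and 41.1% of the beta chain level in the TRiC inputs and at 59.6% and 61.7% in the PFD inputs. LAMB2 made up 41.3% and 40.7% of the beta chain level in the TRiC inputs, but 8.56% and 8.03% in the PFD line. Among the alpha chains, LAMA5 made up 68.1% and 66.5% in the TRiC inputs, but 36.3% and 40.6% in the PFD inputs, where LAMA1 made up 39% and 36.5% and LAMA3 16% and 15.1%. ITGA3 made up 53% and 51.4% of the integrin alpha level for the TRiC inputs, near the 49.5% and 51.9% of the PFD inputs, and ITGB1 made up 75.3% to 78.4% of the beta level in the 4 inputs.

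Since chains combine in equal numbers, the summed levels of the classes were also set side by side. In the TRiC inputs the laminin beta chains summed to 2.33 and 2.41 times the alpha chains per kb. In the PFD inputs this ratio was 9.87 and 11.8. In the TRiC pulldowns, where LAMA5 and LAMA1 were higher, it was 1.83 and 1.80. Integrin alphas summed to 0.972 and 0.898 times the integrin betas in the TRiC inputs and to 1.29 and 1.39 times in the PFD inputs. These ratios have 2 libraries a group and no test, and they use the canonical coding sequence of each gene, which for LAMA3 is the long form of 3333 codons. Gene counts do not separate isoforms.

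**Figure D5:**
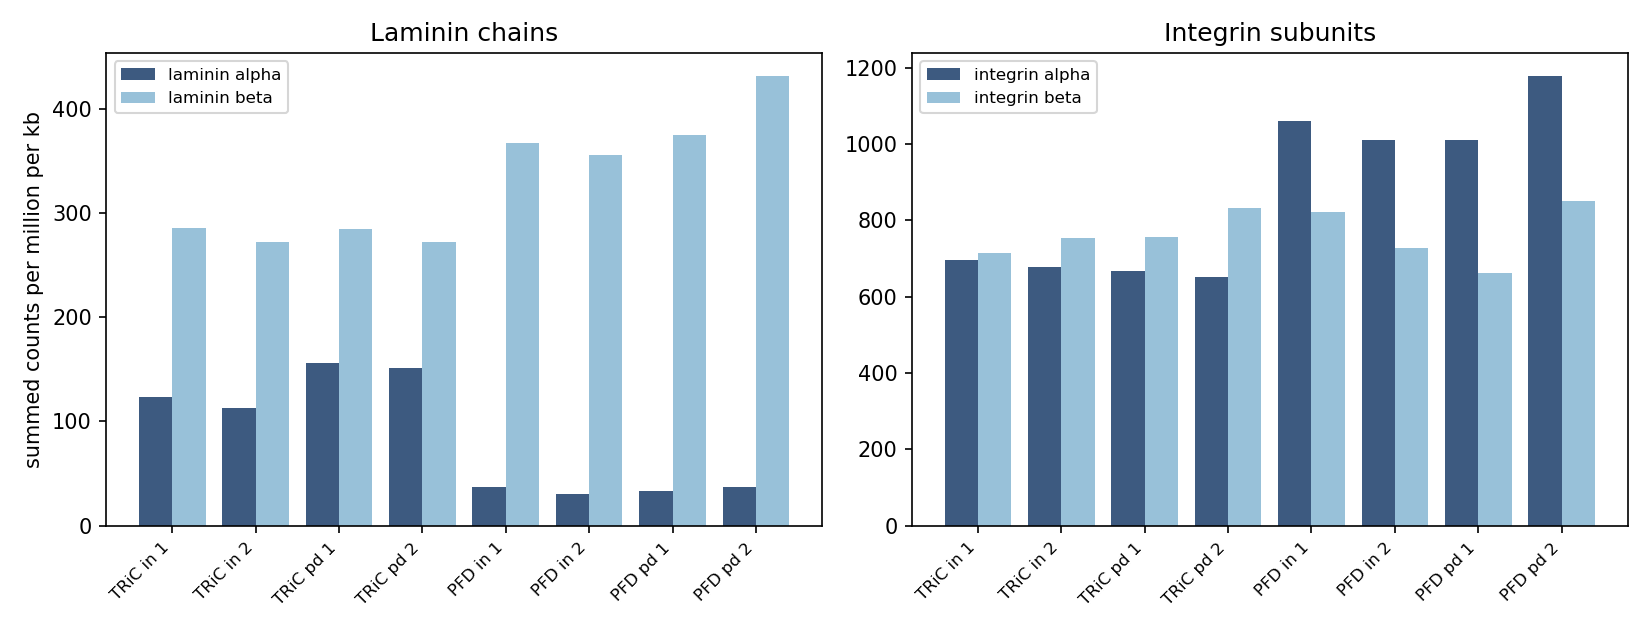
Summed CPM per kb of coding sequence of the laminin alpha and beta chains (left) and of the integrin alpha and beta subunits (right) in each library (in, input; pd, pulldown; bars start at 0). The beta bars are taller than the alpha bars in all 8 libraries and most of all in the PFD libraries, whereas the integrin alpha bars are the taller ones in the PFD libraries alone.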

How the data were processed

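Ribosome-protected fragments of 8 libraries (4 groups of 2 biological replicates) were analysed. According to the methods and the submitters' processing notes, the authors trimmed and demultiplexed reads, extracted molecular identifiers with UMI-tools, removed non-coding RNA with Bowtie2 2.4.2 and aligned to hg38 with STAR 2.7.10a, which gave the deposited counts per gene (uniquely aligned reads, not normalized). The annotation release and the strand setting are not given in the sources used here. The study's own test is made along each coding sequence and cannot be made from gene counts, so a gene's value here averages over all positions.

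Of 60664 identifiers, 60463 were found in GENCODE 44, from which names, coordinates and coding sequences were taken. Counts were tested with edgeR 4.0.16 (R 4.3.3; TMM, filterByExpr, quasi-likelihood test, Benjamini-Hochberg over all genes tested, adjusted p under 0.05), with each pulldown fitted with its own input. SE is the log2 fold change divided by the square root of the F statistic. CPM, counts per 1000000 of the library, used TMM over all 8 libraries. With 2 libraries a group, p-values measure the spread between these libraries of 1 clone per line. DESeq2 1.42.0 and limma 3.58.1 served as alternatives, beside other filters, library totals, a fold threshold of 1.5 (glmTreat) and leaving out each library. The scripts were tested on simulated data. The members, lists and comparisons were chosen with earlier results of these data known. Members called with a mean of at least 100 counts, and the 4 laminins and 6 integrins with the highest input levels, are given with their own fold changes, as are the 3 highest and 3 lowest genes called in the partner lists. The values of 1 gene are not reported here, though counts over the members include it. Genes named beyond this were chosen after their values were seen.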

Additional observations from a re-analysis of the deposited data

How the results depend on the processing

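In the TRiC pulldown the 4 higher and 1 lower calls became 4 and 0 with library totals in place of TMM, 8 and 0 after cyclic loess with limma-trend, 2 and 2 without a filter, and 0 and 0 both against a 1.5-fold change (glmTreat) and in 1 fit of all 8 libraries. Of all genes, 19.2% were called in the main fit, 17.1% with library totals and 17.1% after cyclic loess. The share was 9.68% without a filter, 1.27% by glmTreat and 0.164% in the fit of all 8 libraries. Leaving out 1 library, which leaves 1 in its group, also changed the calls. Cyclic loess turned the log2 fold changes of ITGA3 and LAMB3 there to 0.00065 and 0.048. In the PFD pulldown DESeq2 called 4 members higher and 3.78% of all genes, and the calls changed when either PFD pulldown was left out. DESeq2 put ITGAV there at 0.0031. With 1 library left out, the PFD log2 fold changes ran from -0.20 to 0.23 for ITGA5, -0.104 to 0.078 for ITGAV, -0.220 to 0.0948 for ITGB1, -0.316 to 0.0552 for LAMA1, -0.167 to 0.112 for LAMB1, -0.0268 to 0.639 for ITGAX, -1.148 to -0.0387 for ITGB8, 0.0397 to 0.174 for ITGB5, -0.383 to -0.0044 for ITGA6 and -0.11 to 0.30 for LAMC1. The median over all tested members ran from -0.10 to 0.17 in these fits. The interaction gave 0 higher and 3 lower calls with DESeq2, which called 5.22% of all genes, and its calls also changed when either PFD pulldown was left out. Between the inputs, the 6 lower calls became 10 with the inputs fitted alone and 3 to 13 with 1 library left out, and the 8 higher calls 7 to 8. The share of all genes called between the inputs also moved. It was 20.5% in the main fit and 40.3% with the inputs fitted alone. With 1 library left out it ran from 6.89% to 35.9%. The 13 lower calls came without PFD pulldown 1 and without PFD pulldown 2, where 34.7% and 35.9% of all genes were called. With the replicate block, 7 members were called higher and 2 lower in the TRiC pulldown. The block called 0 in the PFD pulldown, 0 in the interaction, and 7 higher and 5 lower between the inputs. Of all genes, the block called 26.1% in the TRiC pulldown, 0.95% in the PFD pulldown, 0% in the interaction and 8.64% between the inputs. Same-numbered libraries deviated together little (correlation 0.0968 in the TRiC line and -0.0047 in the PFD line), so the numbers are not shown to pair them. The cause of these changes was not tested, beyond the fewer libraries left in each fit. No direction of a member called and named between the inputs turned under any alternative run. Low members were patchy in the PFD libraries (LAMA4 had 87 counts in PFD input 1 and 0 in PFD input 2), and the part of depth in this was not tested.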
